A study of Mus musculus with 10 samples.

Results

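Gfap, Aqp4, Aldh1l1, Slc1a2, Slc1a3, Gdf10, Hopx, S100b and Gja1, 9 genes that mark astrocytes and Bergmann glia, were followed through RNA sequencing of mouse tumors and cerebella. They were chosen by their gene symbols among the 50559 genes counted in each of 10 libraries, and all 9 passed the filter on low counts. RNA came from formalin-fixed paraffin-embedded (FFPE) tissue of 4 MYC/SMARCA4 tumors, 3 P7 whole cerebella and 3 SHH medulloblastomas (SHH MB). The MYC/SMARCA4 tumors grew in the cerebella of adult immunodeficient CD1nu/nu mice from transplanted granule cell precursors of Math1-creERT2::Smarca4fl/fl pups. Smarca4 loss had been induced in these pups by tamoxifen. The precursors were transduced with lentiviral murine Myc and GFP but not sorted for recombined or transduced cells. For these tumor samples the labels give ages of 79 to 112 days. The P7 cerebella came from mice with the same Smarca4 and Cre alleles, Math1-creERT2::Smarca4fl/fl, that were likewise given tamoxifen (0.4 mg) when 3 days old, and the SHH MB from Math1-cre::Smofl/wt mice, both groups at 7 days of age. Math1 drives both Cre lines in granule cell precursors, which give rise to granule neurons, and a punch of a transplanted tumor can hold host tissue along with tumor cells.

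Astrocytes clear glutamate and potassium around synapses, regulate water at their endfeet on vessels and are coupled to each other by gap junctions. Bergmann glia are the astrocytes of the Purkinje cell layer, whose radial fibers guide migrating granule neurons and enwrap Purkinje cell synapses. In the first postnatal weeks, when the cerebella and SHH MB were taken, both cell types are still maturing in mice.

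Between 5663491 and 9352109 reads were counted on genes in a library. Levels are given as CPM, counts scaled per library to the library size after TMM normalization, or as log2 CPM, for which 2 was added to the counts as a prior, and a floor of 3 counts corresponds to 0.307 to 0.744 CPM. The lowest count of a marker was 13, for Hopx in MYC/SMARCA4 tumor 3, so that all 9 markers were detected in all libraries. The labels were checked by Myc, which had 7.25 to 10.63 log2 CPM in the MYC/SMARCA4 tumors, 3.73 to 3.87 in the P7 cerebella and 5.09 to 5.52 in SHH MB. Smarca4 was counted over the whole gene, transcripts of a recombined allele included, at 7.09 to 7.93, 7.79 to 8.14 and 8.94 to 9.20 log2 CPM. The tumors stood apart from each other, with TMM factors of 0.62 to 1.28 against 1.01 to 1.20 in the other libraries, and tumor 1 had the largest share of mitochondrial counts, 6.36% against 2.29% to 2.94% in the other tumors and 1.25% to 1.59% in the remaining groups. Group, age and host differ together between the MYC/SMARCA4 tumors and both other groups and cannot be told apart. Against the cerebella, a tumor punch and a whole cerebellum differ as tissue as well. Between SHH MB and cerebella, tumor and genotype differ together, and the labels give tamoxifen for the cerebella only, so these cannot be told apart either.

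Gdf10 and Hopx mark Bergmann glia in the cerebellum. Gdf10, a secreted ligand of the BMP family, had 11.4, 41.4, 4.90 and 22.0 CPM in MYC/SMARCA4 tumors 1 to 4. It had 96.9, 82.0 and 73.1 CPM in P7 cerebella 1 to 3 and 46.5, 37.9 and 24.9 CPM in SHH MB 1 to 3. All tumors therefore lay below all cerebella, while tumor 2 reached into the range of the SHH MB. In the fit of all 10 libraries by edgeR's quasi-likelihood test, Gdf10 was lower in the MYC/SMARCA4 tumors than in the P7 cerebella, with -2.07 on the log2 scale (adjusted p = 0.0367 by edgeR, standard error 0.52), or 4.21-fold. Against SHH MB the log2 difference was -0.87 (adjusted p = 0.381 by edgeR, standard error 0.52), and for SHH MB against P7 cerebella the difference was -1.20 ± 0.56 (SE, adjusted p = 0.568 by edgeR).

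Hopx encodes an atypical homeodomain protein without DNA binding of its own. Its levels were 22.1, 21.2, 1.82 and 14.6 CPM in tumors 1 to 4, 37.3, 48.1 and 41.2 CPM in the cerebella, and 14.9, 16.5 and 11.6 CPM in SHH MB. Tumors 1, 2 and 4 lay around the SHH MB, tumor 3 lay far below them, and every tumor and every SHH MB was below every cerebellum. None of the differences of Hopx was called, with log2 fold changes of -1.51 ± 0.54 (SE, adjusted p = 0.108 by edgeR) for tumors against cerebella, 0.04 ± 0.55 (SE, adjusted p = 0.974) for tumors against SHH MB and -1.55 ± 0.59 (SE, adjusted p = 0.456) for SHH MB against cerebella. Without tumor 3 the first of these was -1.30 and the last -1.57, both called.

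Slc1a2 and Slc1a3 encode the glutamate transporters GLT-1 and GLAST, of which GLAST prevails in Bergmann glia. In the P7 cerebella here, RNA of Slc1a2 was somewhat above that of Slc1a3, at log2 ratios of 0.14, 0.45 and 0.24. Slc1a2 had 118, 1557, 391.6 and 1340.4 CPM in tumors 1 to 4, 549, 575 and 536 CPM in the cerebella, and 791, 977 and 1189 CPM in SHH MB. Tumors 2 and 4 were above all other libraries and tumors 1 and 3 below all of them, so that the tumor mean of 9.12 ± 1.74 log2 CPM (SD, n = 4) was close to that of the cerebella, 9.11 ± 0.05 (SD, n = 3). Fold changes come from the fit to counts and are not differences of these means. The log2 fold change of tumors was 0.62 against cerebella (standard error 0.64, adjusted p = 0.533 by edgeR) and -0.21 against SHH MB (standard error 0.63, adjusted p = 0.883 by edgeR), within the spread between tumors in both cases. SHH MB were all above the cerebella, with a log2 fold change of 0.83 ± 0.68 (SE, adjusted p = 0.803 by edgeR).

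Slc1a3 had 96.7, 390.2, 56.1 and 272 CPM in tumors 1 to 4. Its levels were 499, 421 and 454 CPM in the cerebella and 329.8, 390.3 and 403 CPM in SHH MB. Each tumor and each SHH MB was below each cerebellum, and tumor 2 reached the level of the SHH MB. Against the cerebella the log2 fold change was -1.17 in tumors (standard error 0.51, adjusted p = 0.178 by edgeR) and -0.29 in SHH MB (standard error 0.55, adjusted p = 0.932 by edgeR), and tumors against SHH MB gave -0.88 ± 0.51 (SE, adjusted p = 0.371 by edgeR).

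Among the structural and calcium-binding proteins, Gfap encodes the intermediate filament of astrocytes. It had 104, 177, 16.8 and 108 CPM in tumors 1 to 4, 230.1, 302 and 275 CPM in the cerebella, and 118, 84.0 and 73.1 CPM in SHH MB. As for Hopx, tumors and SHH MB were both below all cerebella, and the SHH MB lay within the range of the tumors. The log2 fold change was -1.41 ± 0.52 (SE, adjusted p = 0.122 by edgeR) for tumors against cerebella, 0.15 ± 0.53 (SE, adjusted p = 0.905) for tumors against SHH MB and -1.55 ± 0.58 (SE, adjusted p = 0.447) for SHH MB against cerebella, none of them called. Without tumor 3 the decrease of Gfap against cerebella was called both in tumors (-1.19) and in SHH MB (-1.57).

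S100b encodes a calcium-binding protein of astrocytes that myelinating oligodendrocytes contain as well. It had 106, 144, 8.54 and 72.5 CPM in tumors 1 to 4, 33.5, 38.2 and 38.1 CPM in the cerebella, and 25.4, 35.5 and 30.1 CPM in SHH MB. Tumors 1, 2 and 4 lay above all cerebella and all SHH MB, and tumor 3 below all of them. With all tumors the log2 fold change was 1.17 against cerebella (standard error 0.61, adjusted p = 0.241 by edgeR) and 1.44 against SHH MB (standard error 0.61, adjusted p = 0.214 by edgeR). Without tumor 3 it was 1.40 and 1.69, both called. For SHH MB against cerebella it was -0.27 ± 0.63 (SE, adjusted p = 0.948 by edgeR), within overlapping ranges.

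At the membrane, Aqp4 encodes the water channel of astrocyte endfeet. Its levels were 29.3, 220.5, 13.3 and 70.5 CPM in tumors 1 to 4, 699, 678 and 642 CPM in the cerebella, and 342, 314 and 238 CPM in SHH MB. The 3 groups did not overlap at all, with the cerebella highest and the tumors lowest. Against cerebella, Aqp4 fell by 3.01 on the log2 scale in the MYC/SMARCA4 tumors (standard error 0.69, adjusted p = 0.0259 by edgeR), which is 8.07-fold. The tumors differed from SHH MB by a log2 fold change of -1.84 ± 0.67 (SE, adjusted p = 0.147 by edgeR), called only with tumor 2 left out (-2.98), and the SHH MB from the cerebella by -1.17 ± 0.72 (SE, adjusted p = 0.700 by edgeR).

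Gja1 encodes the main gap junction connexin of astrocytes. It had 37.7, 213, 89.1 and 166 CPM in tumors 1 to 4, 90.5, 96.5 and 96.0 CPM in the cerebella, and 56.2, 55.0 and 75.7 CPM in SHH MB. Tumors 2 and 4 were above all other libraries, tumor 3 was just below the cerebella and tumor 1 below all SHH MB. The log2 fold change was 0.42 against cerebella (standard error 0.44, adjusted p = 0.544 by edgeR) and 1.02 against SHH MB (standard error 0.45, adjusted p = 0.232 by edgeR). The latter was called without tumor 1, at 1.31. The SHH MB lay below all cerebella, with -0.60 ± 0.47 (SE, adjusted p = 0.795 by edgeR).

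Aldh1l1 encodes the folate enzyme 10-formyltetrahydrofolate dehydrogenase and is used as a marker of astrocytes throughout the brain. It had 18.3, 20.9, 5.74 and 16.5 CPM in tumors 1 to 4, from 41 to 135 counts. Its levels were 64.3, 65.5 and 84.3 CPM in the cerebella and 59.0, 54.8 and 46.7 CPM in SHH MB. All 4 tumors were below all libraries of both other groups, and the SHH MB were below the cerebella by a smaller margin. The log2 fold change of tumors was -2.22 against cerebella (standard error 0.36, adjusted p = 0.00666 by edgeR), or 4.66-fold lower, and -1.81 against SHH MB (standard error 0.36, adjusted p = 0.0146 by edgeR), or 3.49-fold lower. SHH MB against cerebella gave -0.42 ± 0.38 (SE, adjusted p = 0.831 by edgeR).

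**Figure D1:**
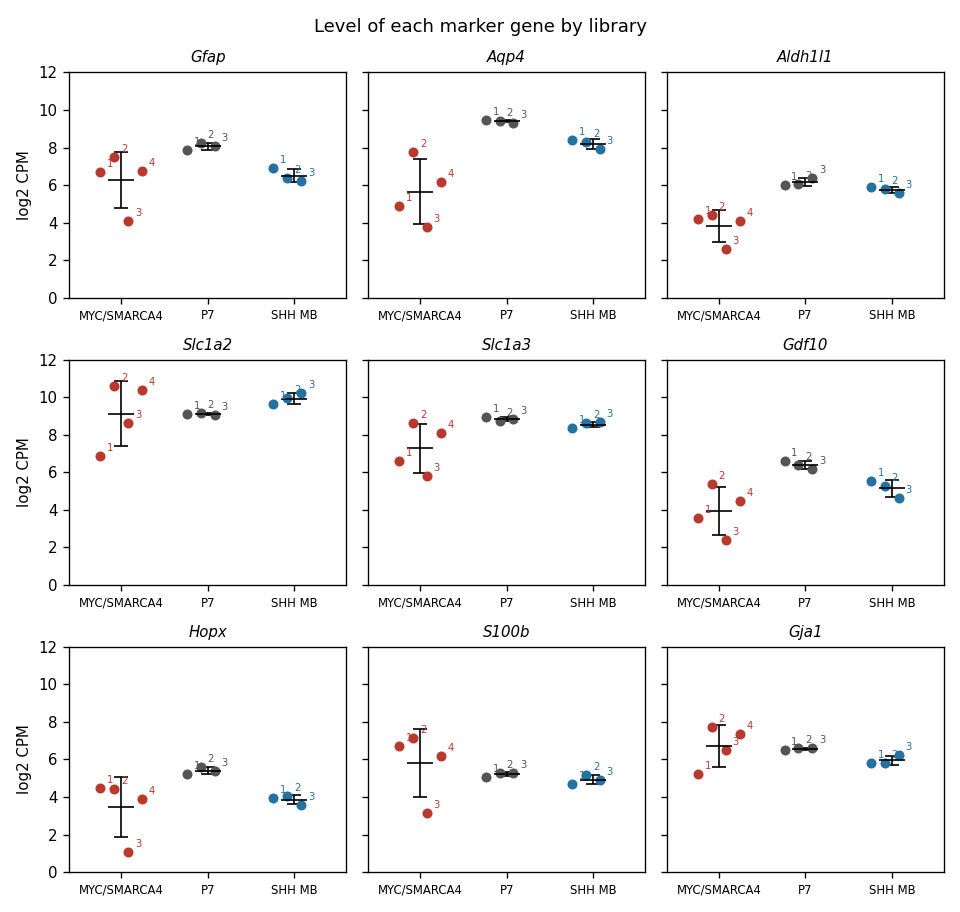
Level of the 9 markers as log2 CPM (y axis) in each library of the MYC/SMARCA4 tumors (red, n = 4), P7 cerebella (gray, n = 3) and SHH MB (blue, n = 3), with replicate numbers beside the points and the mean ± SD as black bars. Aldh1l1 and Aqp4 are lower in all 4 tumors than in any other library, while tumors 2 and 4 exceed all other libraries for Slc1a2 and Gja1.

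In the comparison of MYC/SMARCA4 tumors with P7 cerebella, Aqp4, Aldh1l1 and Gdf10 were called lower with adjusted p-values up to 0.05, which is 3 of 9 markers, and none was called higher. Of the 29952 genes tested, 2.27% were called lower and 3.99% higher. The median log2 fold change of the 9 markers was -1.41, and that of all genes tested -0.05. In 6 markers, namely Gfap, Aqp4, Aldh1l1, Slc1a3, Gdf10 and Hopx, every tumor lay below every cerebellum, as did 10.7% of all genes, and in none above (10.3%). Slc1a2, S100b and Gja1 had positive fold changes that were not called. Under the stricter limits that the study set for its volcano plots, adjusted p up to 0.01 and 2.5 or more on the log2 scale in either direction, no marker was called, as against 0.29% of all genes. The call of Aldh1l1 held with each of the 10 libraries left out in turn (-2.40 to -2.10). Aqp4 and Gdf10 were no longer called without tumor 4, without any 1 of the 3 cerebella or without any 1 of the 3 SHH MB, which left Aldh1l1 alone, as did a fit of only these 2 groups (0.607% of genes lower, 0.206% higher). In contrast, 6 markers were called without tumor 3, 5 lower and S100b higher, where 22.8% of all genes were called lower and 11.8% higher. In bulk RNA, fewer astrocytes and less RNA of these genes per astrocyte cannot be told apart.

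Against SHH MB, only Aldh1l1 was called lower among the 9 markers and none was called higher, with 2.26% of genes lower and 2.43% higher in the background. Aqp4 and Aldh1l1 were the 2 markers in which every tumor lay below every SHH MB (8.3% of all genes), and in none did every tumor lie above (7.83%). The median log2 fold change was -0.21 for the markers and 0.01 for all genes. The call of Aldh1l1 was lost when any 1 of the 3 SHH MB was left out and held without any other library. In a fit of only these 2 groups, its log2 fold change was -1.88 with an adjusted p of 0.0560 by edgeR, and no marker was called (1.15% of genes lower, 0.337% higher). None passed the stricter limits either (0.601% of genes in either direction). Without tumor 3, Aldh1l1 was called lower and S100b higher, with 13.9% and 9.57% of all genes called in these directions.

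For SHH MB against P7 cerebella, none of the 9 markers was called in the fit of all 10 libraries by edgeR, where 0.0467% of genes were called lower and 0.177% higher, and 3 markers (Gfap, Gdf10 and Hopx) and 2635 genes had an unadjusted p under 0.05. DESeq2 and limma on the deposited values, which were also fitted to all 10 libraries including the tumors, called no marker either. DESeq2 gave no adjusted p for Aqp4. Every SHH MB lay below every cerebellum in 7 markers (19.0% of all genes) and above in 1, Slc1a2 (17.8% of all genes). When only SHH MB and P7 cerebella entered the fit, Gfap, Aqp4, Aldh1l1, Gdf10, Hopx and Gja1 were called lower and Slc1a2 higher, 7 of 9 markers, while 10.3% of all genes were called lower and 13.4% higher. The fold changes in that fit were close to those above, for example -1.53 for Gfap (adjusted p = 6.2e-09 by edgeR), -1.15 for Aqp4 (adjusted p = 1.03e-07) and 0.86 for Slc1a2 (adjusted p = 1.51e-05), and the standard errors of these 3 were 0.15, 0.13 and 0.13. Without tumor 3, Gfap and Hopx were called lower in the fit of the 9 remaining libraries (0.874% of genes lower, 0.665% higher). The comparisons of tumors and of SHH MB with the cerebella share the same 3 cerebella, and both comparisons of the tumors share the same 4 tumors.

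**Figure D2:**
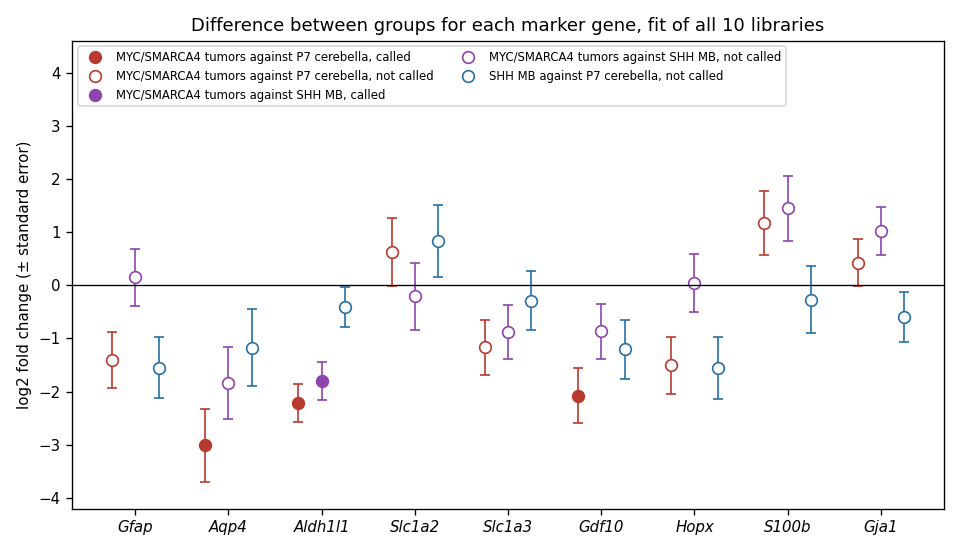
Log2 fold change (y axis, ± standard error) of each marker in the 3 comparisons of the fit of all 10 libraries, with filled points where the adjusted p was 0.05 or lower. Filled points are Aqp4, Aldh1l1 and Gdf10 for MYC/SMARCA4 tumors against P7 cerebella and Aldh1l1 for the tumors against SHH MB.

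The markers differed more among the 4 MYC/SMARCA4 tumors than within the other groups. Highest and lowest tumor were 1.81 (Aldh1l1) to 4.03 (S100b) log2 CPM apart, while the largest range of a marker within the cerebella or SHH MB was 0.90 (Gdf10). Tumor 2 had the highest level in 8 of 9 markers, the exception being Hopx with its highest level in tumor 1. Tumor 3 had the lowest level in 7 of 9, the exceptions being Slc1a2 and Gja1, which were lowest in tumor 1. The mean of the 9 markers was 5.48, 7.06, 4.21 and 6.38 log2 CPM in tumors 1 to 4, a range of 2.85, against 7.23 ± 0.03 (SD, n = 3) in the cerebella and 6.53 ± 0.08 (SD, n = 3) in SHH MB. Only tumor 2 was thus above the SHH MB, and no tumor reached the cerebella. Summed over the 9 markers, tumors had 544, 2785, 588 and 2083 CPM, cerebella 2241 to 2307 CPM and SHH MB 1783 to 2092 CPM, so that by the sum tumor 2 exceeded all cerebella. Slc1a2 alone had 1557 of the 2785 CPM in tumor 2.

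Compared per kilobase of merged annotated exons, which need not be the transcripts present, Aqp4 had the highest level in the cerebella, with 103 ± 4.35 CPM per kilobase (SD, n = 3). Gfap (47.1 ± 6.40) and Slc1a2 (39.5 ± 1.40) followed with overlapping libraries, then Slc1a3 (31.4 ± 2.65), which did not overlap either neighbour. Hopx, S100b and Gdf10 had 19.0, 18.3 and 15.3 CPM per kilobase and overlapped in this order, and Aldh1l1 (8.38) and Gja1 (7.67) were lowest with overlapping libraries. In SHH MB the order began with Slc1a2 (70.4 ± 14.2), Aqp4 (45.5 ± 8.22) and Slc1a3 (25.6 ± 2.67), none of which overlapped. Gfap (16.1) and S100b (15.2) overlapped, as did Gdf10 (6.65), Hopx (6.47), Aldh1l1 (6.28) and, with the lowest mean, Gja1 (5.06). The tumors had the highest mean levels per kilobase for Slc1a2 (60.9 ± 50.3, n = 4) and S100b (41.4 ± 28.7), followed by Gfap (17.8), Slc1a3 (14.0), Aqp4 (12.7), Gja1 (10.3), Hopx (6.73), Gdf10 (3.63) and Aldh1l1 (1.80), and each overlapped its neighbours in this order. By these means, Aqp4, first of 9 in the cerebella, was the fifth in the tumors, and S100b went from the sixth place to the second. For Aqp4, tumor 2 had 33.6 CPM per kilobase, and the median of the tumors was 7.61.

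**Figure D3:**
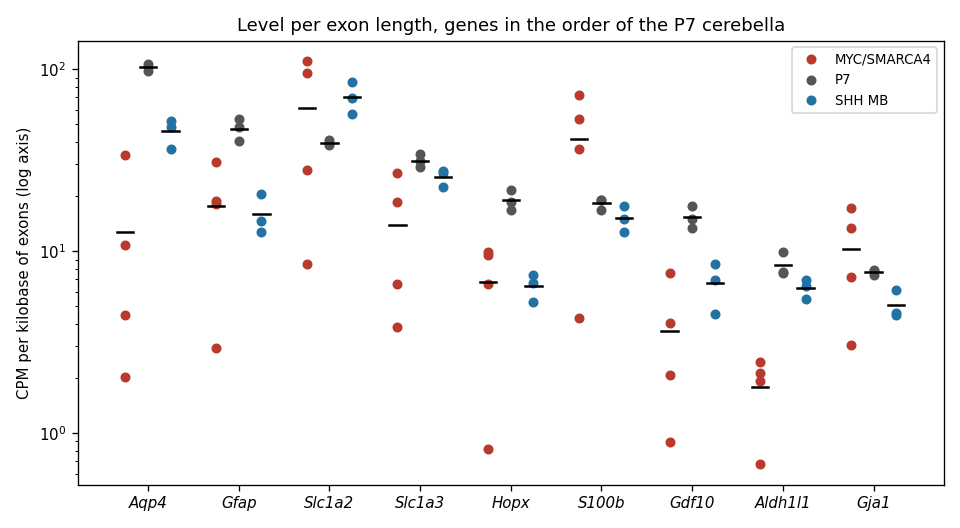
CPM per kilobase of annotated exons (y axis, log scale) for each marker, in the order of the P7 cerebella, with 1 point per library and the group mean as a black line. By group means, Aqp4 leads in the cerebella and Slc1a2 in SHH MB and in the tumors. In tumor 1, however, Slc1a2 (8.45) is below S100b (53.0). The points of the tumors spread most widely for Aqp4, Slc1a2 and S100b.

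Balance between markers within a library, which does not depend on library size, was compared for 2 pairs by two-sided exact permutation tests over libraries, with p-values adjusted over 6 tests. The smallest p that 4 against 3 libraries allow is 0.0571, and 0.1 for 3 against 3. The log2 ratio of Slc1a2 to Slc1a3 was 0.29, 2.00, 2.80 and 2.30 in tumors 1 to 4, 0.14, 0.45 and 0.24 in the cerebella, and 1.26, 1.32 and 1.56 in SHH MB. Tumor 1 lay within the cerebella and the other 3 tumors above all other libraries. Tumors differed from cerebella by 1.57 (exact permutation test, p = 0.114, adjusted p = 0.229) and from SHH MB by 0.46 (p = 0.514 by the exact test). SHH MB exceeded the cerebella by 1.11 without overlap, at the smallest p possible (exact permutation test, p = 0.1, adjusted p = 0.229).

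The log2 ratio of Gfap to Gdf10, of the astrocyte filament to the Bergmann glia ligand, was 3.16, 2.09, 1.72 and 2.29 in tumors 1 to 4. It was 1.25, 1.88 and 1.91 in the cerebella and 1.34, 1.14 and 1.55 in SHH MB. All tumors were above all SHH MB, with a difference of 0.97 (exact permutation test, p = 0.0571, adjusted p = 0.229), whereas tumor 3 lay within the cerebella (difference of all tumors 0.64, exact p = 0.171). SHH MB and cerebella overlapped, with a difference of -0.34 (exact p = 0.300). With these group sizes no ratio could pass 0.05 in the exact test, whatever its values, so the lack of a call says nothing about the ratios.

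**Figure D4:**
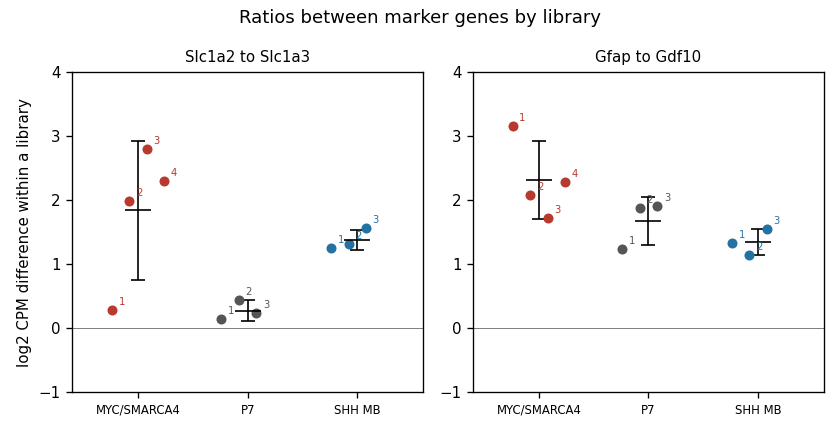
Difference of log2 CPM between Slc1a2 and Slc1a3 (left) and between Gfap and Gdf10 (right) within each library, with replicate numbers and the mean ± SD per group. For Slc1a2 and Slc1a3, SHH MB sit at 1.26 to 1.56, cerebella at 0.14 to 0.45 and tumors from 0.29 to 2.80. For Gfap and Gdf10, all tumors, from 1.72 upward, are above all SHH MB.

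Genes beyond the 9 markers were taken from lists for the same cell types. Of 30 further astrocyte genes, 4 were called lower in MYC/SMARCA4 tumors than in cerebella (2.27% of all genes) and none higher (3.99%). The median log2 fold change was -0.26, against -0.05 for all genes. The 4 were Slc6a11, a GABA transporter (-2.67, standard error 0.46, adjusted p = 0.00942 by edgeR), the transcription factor Sox9 (-1.91), the amino acid transporter Slc7a10 (-1.44) and the secreted phagocytosis factor Mfge8 (-1.16). None of the 30 was called in the fit of only these 2 groups (0.607% of all genes lower, 0.206% higher). Without tumor 3, 6 of the 30 were called lower and 5 higher, beside 22.8% and 11.8% of all genes. Against SHH MB, Sox9 (-3.55) and Slc6a11 (-2.74) were called lower, and the connexin gene Gjb6 (2.51) and Aldoc (2.76), a glycolytic enzyme that Purkinje cells also express, higher, Aldoc with overlapping libraries. The median over the list was 0.32, and 2.26% of all genes were called lower and 2.43% higher. The fit of only these 2 groups called 2 genes of the list lower (1.15% of all genes) and none higher (0.337%).

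Of 15 further Bergmann glia genes, 3 were called lower against cerebella (2.27% of all genes) and none higher (3.99%), and the median was -0.44 (-0.05 for all genes). They were Tnc, an extracellular matrix glycoprotein (3.39 ± 0.62 log2 CPM, SD, n = 4, against 7.94 ± 0.12, n = 3), Fabp7, a fatty acid binding protein of radial glia (3.37 ± 1.90 against 8.28 ± 0.01), and Etv4, a transcription factor of the ETS family (2.57 ± 0.68 against 4.48 ± 0.18). A fit of only these 2 groups called Tnc alone (0.607% of all genes lower, 0.206% higher). With all libraries their log2 fold changes were -4.49, -4.14 and -1.82, those of Tnc and Fabp7 further from 0 than that of any of the 9 markers. Tnc, Fabp7, Etv5, Nes and Etv4 were called lower against SHH MB (2.26% of all genes), from -4.04 to -1.98. Dao, a D-amino acid oxidase, was called higher (2.43% of all genes) at 1.60, a call that the fit of 2 groups did not make. Several of the 5 genes called lower, Nes and Fabp7 among them, are also expressed by neural progenitors.

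Of 27 reactive astrocyte genes, S1pr3 was called lower against cerebella (-1.05), as were 2.27% of all genes. S1pr3, Cd44 and Socs3 were called lower against SHH MB (-1.19, -1.66 and -1.83), as were 2.26% of all genes. None was called higher in either comparison (3.99% and 2.43% of all genes). The medians were -0.21 and 0.15, against -0.05 and 0.01 for all genes. In fits of only 2 groups, none of the 27 was called against cerebella and 1, Cd44, was called lower against SHH MB (1.15% of all genes). In a list of 16 gliogenic factors, the receptor Egfr (-2.51) and Sox8 (-1.82) were called lower against cerebella (2.27% of all genes). The mean of this list was higher in SHH MB (6.27 to 6.36 log2 CPM) than in the cerebella (6.03 to 6.15). Whether differences in this list come from glia was not tested. Against SHH MB, Egfr (-3.61), Sox8 (-2.63), Nfia (-2.28), Hes1 (-2.02) and Nfib (-1.45) were called lower (2.26% of all genes) and none higher (2.43%). Hes1, a target of Notch signaling, was the 1 gene of these 4 lists called between SHH MB and cerebella in the fit of all 10 libraries, at 2.1 on the log2 scale higher in SHH MB. In that comparison, 0.0467% of all genes were called lower and 0.177% higher. When only SHH MB and cerebella were fitted (10.3% of all genes lower, 13.4% higher), 19 further astrocyte genes were called lower and 3 higher, 5 and 4 further Bergmann glia genes, 3 and 5 reactive astrocyte genes, and 2 and 8 gliogenic factors.

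Lists of other cell types were compared with the 9 markers by their mean level in each tumor. Tumor 3 had the lowest mean in 12 of 14 other lists, and the highest in the list of granule cell precursors and cell cycle and in that of choroid plexus and ependyma. By the mean of the 9 markers the tumors ranked 2, 4, 1 and 3, an order that 4 markers (Gfap, Aqp4, Slc1a3 and Gdf10) had on their own. It was also that of the means of the further astrocyte genes, the further Bergmann glia genes, gliogenic factors, oligodendrocyte precursors and fibroblasts. Genes of mature granule neurons (8.86, 7.58, 4.77 and 6.85 log2 CPM in tumors 1 to 4), Purkinje cells (8.98, 6.98, 4.13 and 6.45) and myelin (6.95, 4.82, 3.02 and 4.33) were instead highest in tumor 1, and endothelial, microglial, erythrocyte and reactive astrocyte genes also had their highest mean there. In cerebella and SHH MB the granule neuron list had 6.07 to 6.38 and 4.78 to 4.97 log2 CPM. The part of these other cell types in the levels of the 9 markers was not tested.

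In the fit of all 10 libraries, 4 of 10 mature granule neuron genes were called higher against cerebella (3.99% of all genes) and 5 of 10 oligodendrocyte precursor genes and 3 of 10 choroid plexus and ependymal genes lower (2.27% of all genes). In the other lists, 1 of 10 fibroblast genes was called higher, 1 of 6 erythrocyte genes and 1 of 10 precursor and cell cycle genes lower, and none of the Purkinje, myelin, microglial and endothelial genes was called. The fit of only these 2 groups called no granule neuron or fibroblast gene, and 2 oligodendrocyte precursor and 2 choroid plexus genes lower (0.607% of all genes lower, 0.206% higher). Without tumor 1, when 4816 genes in all were called in either direction, 4 granule neuron genes were called higher and 3 lower. In that fit, 4 precursor and cell cycle genes were called higher and 2 lower, and 8 oligodendrocyte precursor, 5 choroid plexus and ependymal and 4 endothelial genes lower. The shares of all genes called higher and lower there are not given here, so these counts cannot be read as results about the lists.

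Against SHH MB, 5 granule neuron, 3 Purkinje and 1 myelin gene were called higher (2.43% of all genes), and 5 oligodendrocyte precursor, 2 choroid plexus, 2 precursor, 1 endothelial and 1 erythrocyte gene lower (2.26% of all genes). With only these 2 groups, 3 granule neuron genes and no Purkinje or myelin gene were called higher (0.337% of all genes) and 3 oligodendrocyte precursor genes lower (1.15%). Between SHH MB and cerebella, 2 precursor and cell cycle genes and 1 oligodendrocyte precursor gene were called higher in the fit of all libraries (0.177% of all genes) and none lower (0.0467%). When only SHH MB and cerebella were fitted, 9 of 10 precursor and cell cycle genes were called higher in SHH MB (13.4% of all genes). In that fit, 9 of 10 Purkinje, 9 of 10 myelin and 7 of 10 granule neuron genes were called lower (10.3% of all genes).

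**Figure D5:**
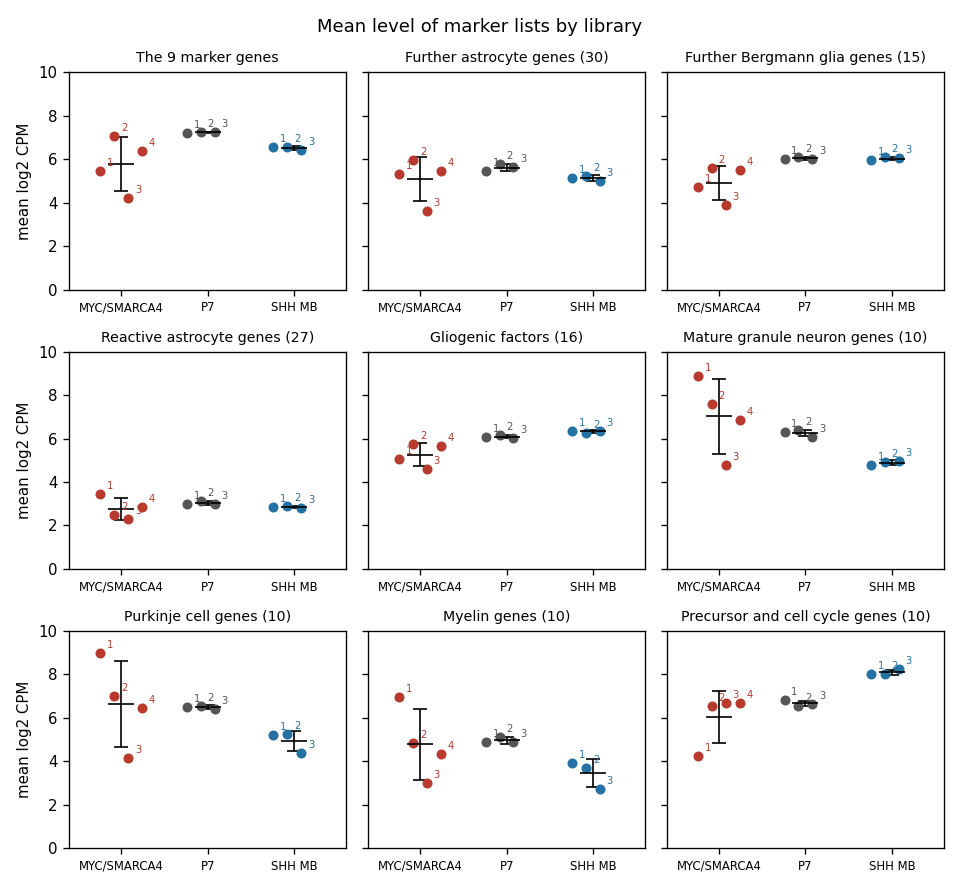
Mean log2 CPM (y axis) of the 9 markers and of 8 other lists (number of genes in parentheses) in each library, with replicate numbers and the mean ± SD per group. By their means, the 9 markers, further astrocyte and Bergmann glia genes rank tumors 2, 4, 1 and 3 from high to low, whereas granule neuron, Purkinje and myelin genes are highest in tumor 1 and precursor and cell cycle genes lowest there.

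Genes with profiles most like the mean of the markers were ranked by the root mean square distance of centred log2 CPM over the 10 libraries, among 16776 genes with a mean of at least 2 log2 CPM. The nearest were Sparcl1 (0.21), Lingo1 (0.28), Tmsb4x (0.28), Kcnj10 (0.30), Dok6 (0.31), Mras (0.31), Ttyh1 (0.33), Hepacam (0.34), Dbi (0.34) and Pcdh17 (0.34). Of the markers themselves, Slc1a3 was closest to the mean (0.29) and Aqp4 (1.08), S100b (1.06) and Slc1a2 (1.01) farthest from it. Gfap and Hopx were each other's nearest gene among all 16784 genes searched for a single marker (0.26). The nearest genes to 6 of the other markers were Sdc3 for Aldh1l1, Shc3 for Slc1a3, Chst1 for S100b, Id4 for Gdf10, Asf1b for Slc1a2 and Ednrb for Aqp4, at distances from 0.20 (Sdc3) to 0.45 (Ednrb).

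The promoters of Gfap, Aldh1l1, Slc1a2, Slc1a3, Gdf10, Hopx, S100b and Gja1 were searched for 4 motifs of factors of gliogenesis or of MYC in the 250 bases before the start of 1 transcript per gene, the one annotated as canonical, on both strands, and compared with 21738 promoters of this length. Aqp4 was not searched here. The NFI motif (TTGGC and GCCAA with 5 bases between) was in none of the 8 and in 0.0322% of all promoters. The STAT motif (TTCNNNGAA) was in 1 of 8, Slc1a3, against 7.69%, the MYC E-box (CACGTG) in 1, Hopx, against 6.27%, and the RBPJ motif (TGGGAA) in 3, Aldh1l1, Gdf10 and S100b, against 22.7%. No motif was shared by most of the 8. The windows of Slc1a3, Hopx, Aldh1l1 and Gja1 lie wholly or mostly within annotated exons. The windows of these 4 genes and of Gfap and S100b lie wholly or partly inside the annotated span of the gene, and those of Gdf10 and Slc1a2 just before it. Sequences before the start of the called Bergmann glia marker Gdf10 and of the astrocyte markers Gfap and Slc1a2, which were not called, are shown from the GRCm39 reference, 5′ to 3′ on the strand of the gene, with the RBPJ motif, here read on the opposite strand, in capitals.
Gdf10 (chr14:33645023-33645272, plus strand): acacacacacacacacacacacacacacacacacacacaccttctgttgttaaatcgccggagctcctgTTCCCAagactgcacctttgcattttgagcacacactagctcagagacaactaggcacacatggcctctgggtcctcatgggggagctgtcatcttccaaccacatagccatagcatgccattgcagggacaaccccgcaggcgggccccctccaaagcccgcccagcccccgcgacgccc
Gfap (chr11:102788186-102788435, minus strand): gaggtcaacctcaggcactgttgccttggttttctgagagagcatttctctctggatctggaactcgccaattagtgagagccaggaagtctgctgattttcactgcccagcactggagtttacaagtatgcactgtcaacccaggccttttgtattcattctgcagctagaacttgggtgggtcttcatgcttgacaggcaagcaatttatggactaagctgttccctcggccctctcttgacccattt
Slc1a2 (chr2:102488324-102488573, plus strand): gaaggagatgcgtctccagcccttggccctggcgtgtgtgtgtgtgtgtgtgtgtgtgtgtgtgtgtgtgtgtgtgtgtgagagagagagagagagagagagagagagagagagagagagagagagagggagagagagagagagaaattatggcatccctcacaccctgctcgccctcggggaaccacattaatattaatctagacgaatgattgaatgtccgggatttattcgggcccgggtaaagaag
The motif begins 181 bases before the start of Gdf10, and dinucleotide repeats take up part of the sequences of Gdf10 and Slc1a2.

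On GRCm39, Gfap spans chr11:102778159-102791738, Gdf10 chr14:33645273-33659940, Slc1a2 chr2:102488574-102621129, Slc1a3 chr15:8663604-8741595, Aldh1l1 chr6:90463409-90577185 and Hopx chr5:77234831-77263022. S100b (chr10:76085090-76097159) and Gja1 (chr10:56253241-56278609) lie on the same chromosome. Exons of Aldh1l1, Slc1a2, Slc1a3, Gdf10, Hopx and Gja1 overlap exons of other annotated genes (among them Hopxos, Gm13872 and Gm30031), mostly on the opposite strand. Whether reads were counted by strand was not given in the sources used here, so that the counts of these 6 markers carry that uncertainty.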

How the data were processed

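RNA of 10 FFPE samples was analysed (4 MYC/SMARCA4 tumors, 3 P7 cerebella, 3 SHH MB; biopsy punches for tumors). Raw counts per gene were deposited by the authors, who trimmed reads, aligned them to GRCm39 and counted them per gene, and the submitters' processing notes name FastQC 0.73, Trimmomatic 0.38.1, STAR 2.7.8a, featureCounts 2.0.1 and DESeq2 2.11.40.7. The authors also deposited log2-like values of a variance-stabilizing transformation (VST) for 46123 genes. These values were used here only in alternatives, with limma 3.58.1 for the calls and directly for the ratios and the mean of the markers. The study used limma on transformed values, and the counts were tested here by edgeR 4.0.16 (R 4.3.3) instead.

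Genes were filtered by filterByExpr (29952 of 50559 kept), scaled by TMM and fitted by the quasi-likelihood test over all 10 libraries without covariates. Log2 fold changes by edgeR are estimates of this fit to counts, so they can differ from differences of mean log2 CPM where the tumors spread widely. P-values were adjusted by Benjamini-Hochberg over all genes tested, and a call means an adjusted p of 0.05 or lower. Ratios were tested by exact permutation in SciPy 1.17.1. Before use, the exact test was tried on small made-up sets with known p-values. Simulated counts, with the same spread of a gene in all groups, unlike these data, were used to try edgeR, DESeq2 and limma. Alternatives included DESeq2 1.42.0, other filters and scalings, fits of 2 groups and leaving out each library. The labels do not say whether samples of a group came from separate litters. In the fit of all 10 libraries, each gene has a shared estimate of spread for all groups, although the tumors spread more widely. For Aqp4, the SD of log2 CPM was 1.73 in tumors, 0.06 in cerebella and 0.27 in SHH MB. A p-value for any pair of groups in that fit therefore also draws on the spread of the remaining group.

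The markers and the 14 other lists were chosen with earlier results of these data known. All 9 markers are named. Of the other lists, called genes without overlap between groups were named, up to 4 with the largest change in each direction, and genes outside this rule where a count was 5 or fewer. The genes nearest to the mean of the markers (10) and to each marker (1) were named by root mean square distance, except that the gene nearest to Gja1 is not reported here. Floors cover counting error only. Promoter sequences and coordinates come from the GRCm39 reference.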

Additional observations from a re-analysis of the deposited data

Results flagged for a closer look

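Among 26 groups of 4 tumors tested for a sample far from the others (each marker, list mean and ratio), 2 passed Dixon's criterion at 95%, on the gap to the nearest sample as a share of the range. Chance flags about 1 in 20 groups. Hopx in MYC/SMARCA4 tumor 3 had 1.07 log2 CPM, against a median of 4.16 and a maximum of 4.48 over the 4 tumors, only just past the criterion. The mean of granule cell precursor and cell cycle genes in tumor 1 was 4.22 log2 CPM, against a median of 6.61 and a maximum of 6.69.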

How the results depend on the processing

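For MYC/SMARCA4 tumors against P7 cerebella, 3 markers and 1873 genes were called. The number of markers was 5 with at least 10 counts in every library, 1 in the fit of only these 2 groups and 0 under the stricter limits, and 1 to 6 with a library left out. The number of genes was 4485 by DESeq2, 1120 by limma on VST values, 229 with 2 groups, 87 under the stricter limits and 150.0 to 9932 with a library left out. With the filter at 10 counts, 1853 genes were called, and the number of genes tested under it is not given here. Against SHH MB, 1 marker and 1403 genes were called. The number of markers was 0 with 2 groups and under the stricter limits and 0 to 2 with a library left out, and that of genes 3062 by DESeq2, 875 by limma, 388 with 2 groups, 180.0 under the stricter limits and 311 to 6729 with a library left out. For SHH MB against cerebella (0 markers, 67 genes), 7 markers and 6883 genes were called with 2 groups, and 0 to 2 markers and 0 to 946 genes with a library left out. DESeq2 called 465 genes, the filter at 10 counts 133 and the stricter limits 3.

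Replicate numbers did not pair the samples (correlation of deviations -0.20 to 0.18), and with the replicate number as a block 1 marker and 370.0 genes were called against cerebella, 0 and 631 against SHH MB, and 0 and 19 between SHH MB and cerebella. With the block, log2 fold changes that were not called changed sign for Slc1a2 against cerebella (-0.20), Gfap against SHH MB (-0.16) and Hopx against SHH MB (-0.19).

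Fold changes near 0 that changed sign otherwise were all against SHH MB and not called. Gfap was at -0.20 by limma and -0.14 with the filter at 10 counts, and -0.26 to 0.38 with a library left out. Hopx was at -0.25 in both of these, -0.027 with 2 groups and -0.21 to 0.27 with a library left out. Slc1a2 ranged from -0.67 to 0.15 with a library left out. Against cerebella, Aldh1l1 was called in 19 of 19 alternatives and Gdf10 in 10 of 19. Aqp4 was called there in 9 of 18, as DESeq2 gave no adjusted p for it. Aldh1l1 against SHH MB was called in 14 of 19. The causes were not tested. Counts of 41 to 135 for Aldh1l1 and 13 for Hopx in tumor 3 limit the precision of the lowest levels, and 4 tumors that differ widely limit that of all comparisons with them.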
